A study of Mus musculus with 6 samples.

Results

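Levels of 10 genes of the piRNA pathway and of de novo DNA methylation were followed in single cells of fetal mouse gonads: *Piwil2*, *Piwil4*, *Mov10l1*, *Tdrd1*, *Tdrd5*, *Tdrd9*, *Asz1*, *Mael*, *Dnmt3l* and *Dnmt3a*. They were taken by symbol, as 10 of the 26251 genes listed in the libraries, and all 10 were listed in each of the 6 libraries. The gonads came from embryos at E15.5 on a C57BL/6 background. dKO testis means XY gonads of *Amh*-/-; *Inhbb*-/- embryos, which lack anti-Müllerian hormone and the beta B subunit of activin B in every cell. Control testis and control ovary came from *Amh*+/+; *Inhbb*+/+ embryos, and each of the 3 groups had 2 libraries. Gonad pairs of an animal were pooled, and the suspensions were frozen until the genotype was known. The sources do not state how many embryos a library holds. The levels were asked for in germ cells and in the somatic cells around them, with the comparison of dKO testis with control ovary as the main one.

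PIWI-interacting RNAs (piRNAs) are small RNAs of germ cells that guide PIWI proteins to transposon transcripts. In the fetal testis, germ cells leave the cell cycle as prospermatogonia, take up piRNA-guided silencing and regain DNA methylation before birth. Germ cells of the fetal ovary enter meiosis instead and regain DNA methylation only in growing oocytes after birth. High levels of *Piwil4* and *Dnmt3l* are therefore known as features of fetal male germ cells.

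The effectors of the pathway are the PIWI proteins. *Piwil2* (chromosome 14, 70372477 to 70429383, minus strand, GRCm38) encodes MILI, the cytoplasmic PIWI protein that cleaves transposon RNA. *Piwil4* (chromosome 9, 14696230 to 14740733, minus strand) encodes MIWI2, which acts in the nucleus of prospermatogonia and directs methylation to transposons. *Mov10l1* (chromosome 15, 88982909 to 89055152, plus strand) encodes an RNA helicase that binds piRNA precursors, and *Tdrd9* (chromosome 12, 111971559 to 112068854, plus strand) a helicase with a tudor domain that works with MIWI2. *Tdrd1* (chromosome 19, 56826209 to 56870012, plus strand) and *Tdrd5* (chromosome 1, 156255296 to 156303664, minus strand) encode tudor domain proteins of the germ granules. *Asz1* (chromosome 6, 18050964 to 18109061, minus strand) encodes a scaffold on the mitochondrial surface, and *Mael* (chromosome 1, 166201201 to 166238747, minus strand) a granule protein needed for transposon silencing. *Dnmt3a* (chromosome 12, 3806007 to 3914443, plus strand) encodes a de novo DNA methyltransferase. *Dnmt3l* (chromosome 10, 78041947 to 78063622, plus strand) encodes its cofactor, which has no catalytic activity of its own.

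The libraries held between 152972655 and 296488697 UMIs, where a UMI (unique molecular identifier) stands for 1 captured mRNA molecule. Of 68064 barcodes, 39350 passed the filter of the study (more than 2500 and fewer than 9000 genes, under 25% mitochondrial and under 20% *Hbb* UMIs). Libraries shared between 4 and 25 barcodes per pair among these cells, and none among germ cells. *Amh* had 1896 and 1875 CPM (UMIs of a gene scaled to a common total of all UMIs) in supporting-like cells of control testis, and 17.8 and 13.5 CPM in those of dKO testis. *Inhbb* had 154 and 184 CPM in the former and 39.3 and 48.7 CPM in the latter, where transcripts of a disrupted gene can still be counted.

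Germ cells were the passing cells with at least 5 UMIs of *Dazl* and at least 2 of *Ddx4*, both RNA regulators of the germ line. This gave 442 and 388 cells in dKO testis, 298 and 222 in control ovary, and only 15 and 9 in control testis, 1374 in all. Just inside the gate, 170 of them had exactly 5 *Dazl* or exactly 2 *Ddx4* UMIs, and 185 cells lay 1 UMI outside it. All 6 germ cell markers were detected in the germ cells of each library, with a summed level of 1815 to 3262 CPM. Sertoli markers were also detected, 8 of 8 in each library, at 1041 and 1757 CPM in dKO testis and 2301 and 1256 CPM in control testis but 101 and 79.1 CPM in control ovary. Leydig markers summed to 420 and 301 CPM in dKO testis, 89.2 and 2693 CPM in control testis, and 22.5 and 13.9 CPM in control ovary with *Insl3* at 0. The part of these somatic transcripts in the germ cell results was not tested. Of the 1374 germ cells, 178 fell into clusters of somatic cells, and the results below are also given without them where a call changed.

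Unsupervised clustering, in which the 10 genes were not used, placed the other germ cells in 2 clusters. One was led by *Sycp3*, *Syce3* and *Tex101* (called meiotic-led here, since the first pair encode parts of the synaptonemal complex) and the other by the pluripotency genes *Dppa3*, *Dppa5a* and *Utf1* (called pluripotency-led). The meiotic-led cluster held 84.0% of the germ cells of control ovary, 9.16% of those of dKO testis and none of the 24 of control testis. The pluripotency-led cluster held 7.5%, 75.1% and 87.5% of them. A difference between dKO testis and control ovary over all germ cells thus also compares 2 mixes of cells.

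In germ cells of dKO testis, *Mov10l1* and *Mael* were lower and *Tdrd1* and *Tdrd5* higher than in control ovary, by 1.90- to 2.35-fold. The other tested genes did not pass the test, and *Dnmt3l* was near 0 in both groups and was filtered out. UMIs were summed over the germ cells of each library and tested with the quasi-likelihood test of edgeR, with Benjamini-Hochberg adjustment over all 14539 genes. Of the 9 genes tested 4 were called, but 41.6% of all genes were called in this comparison, so the count says nothing particular of these genes. Their median log2 difference was -0.04, against 0.01 over all genes.

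*Piwil2* had 34.9 and 38.6 CPM in dKO testis and 40.3 and 37.3 CPM in control ovary. Both groups overlapped, and the log2 difference of -0.04 had a 95% interval from -0.46 to 0.39 (adjusted p = 0.90, edgeR). *Piwil4* was low in both, with 2.67 and 2.65 CPM in dKO testis and 2.5 and 0.823 CPM in control ovary (log2 difference 0.68, SE 0.48, adjusted p = 0.28, edgeR). These levels rest on 49, 43, 30 and 7 UMIs.

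Among the helicases, *Mov10l1* had 82.4 and 98.5 CPM in dKO testis and 213 and 222 CPM in control ovary, so the 4 libraries did not overlap. It was 2.35-fold lower in dKO testis (log2 difference -1.23, SE 0.20, adjusted p = 0.00018, edgeR). *Tdrd9* had 2.99 and 3.76 CPM against 5.00 and 6.23 CPM, again without overlap, but did not pass the test (log2 difference -0.69, SE 0.36, adjusted p = 0.14, edgeR). In the meiotic-led cluster its order was the opposite, as given below.

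For the tudor genes, *Tdrd1* was at 18.2 and 19.8 CPM in dKO testis and 10.0 and 10.1 CPM in control ovary. Both dKO testis libraries were higher, by 1.94-fold (log2 difference 0.96, SE 0.24, adjusted p = 0.0048, edgeR). *Tdrd5* was at 33.4 and 32.5 CPM against 18.4 and 17.3 CPM, 1.90-fold higher (log2 difference 0.93, SE 0.22, adjusted p = 0.0027, edgeR). The spread within each group was small for both genes.

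*Asz1* had 57.7 and 44.3 CPM in dKO testis and 50.8 and 59.8 CPM in control ovary, which overlapped (log2 difference -0.07, 95% interval -0.54 to 0.40). *Mael* had 89.5 and 76.1 CPM against 161 and 218 CPM, with both dKO testis libraries lower. Its 2.23-fold difference passed the test (log2 difference -1.16, SE 0.23, adjusted p = 0.00079, edgeR).

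The methyltransferase gene *Dnmt3a* had 35.0 and 63.7 CPM in dKO testis and 44.2 and 29.0 CPM in control ovary, with overlap between the groups. Its log2 difference of 0.46 (SE 0.25, adjusted p = 0.16, edgeR) was called without the germ cells that fell into somatic clusters (0.49, SE 0.21, adjusted p = 0.043, with 50.1% of 13890 genes called). *Dnmt3l* had 0 and 2 UMIs in the 2 dKO testis libraries and 0 and 1 UMI in those of control ovary, from 830 and 520 cells. All 4 values lie at or under 3 counts, which for single libraries amounts to between 0.163 and 0.353 CPM, and no fold is given where both groups are that low.

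**Figure D1:**
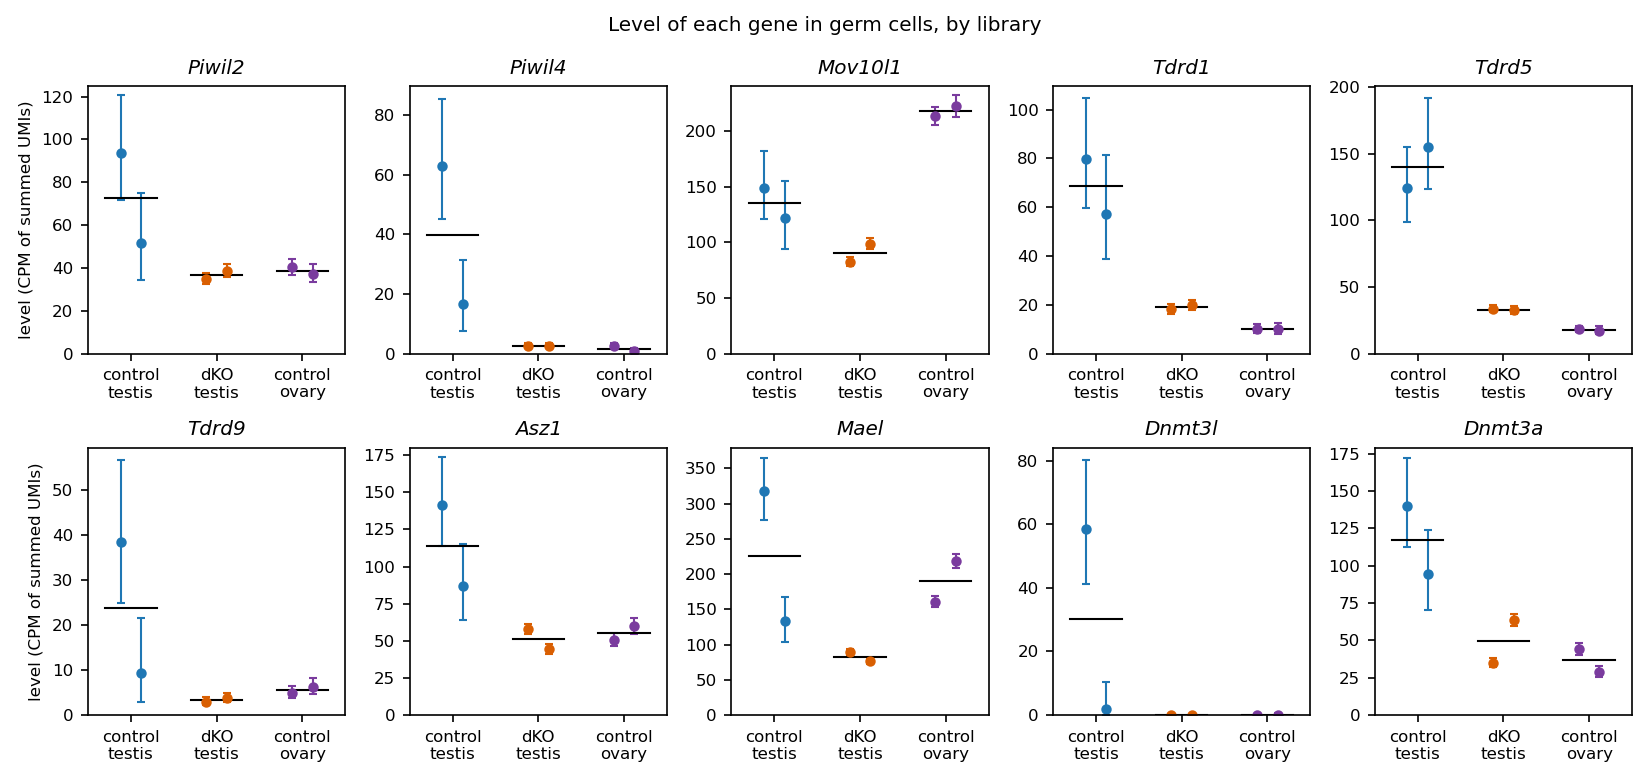
Level of each gene in germ cells in CPM of the summed UMIs (vertical axes, linear from 0), with 1 point per library, bars for the 95% Poisson interval of counting error and a black line for the mean of the 2 libraries of a group. *Mov10l1* and *Mael* lie lower in dKO testis than in control ovary, *Tdrd1* and *Tdrd5* higher, and *Dnmt3l* reaches 58.4 CPM in 1 control testis library and at most 1.85 CPM in any other.

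Promoters of the 4 genes that differed are shown because their transcripts moved in opposite directions, 2 up and 2 down. Each is the RefSeq sequence of GRCm38.p6 from 250 bases before to 50 after a transcription start, 5′ to 3′ on the gene's strand, and 9 of the 10 genes have an entry. Capitals mark CACGTG, an E-box, and TCCCGC on either strand (GCGGGA where the reverse strand holds it), the core of sites bound by E2F family proteins. *Mov10l1* is at chr15:88982744-88983043, *Tdrd1* at chr19:56825959-56826258 (the first of its 3 entries), *Tdrd5* at chr1:156303299-156303598 and *Mael* at chr1:166238695-166238994.
Mov10l1: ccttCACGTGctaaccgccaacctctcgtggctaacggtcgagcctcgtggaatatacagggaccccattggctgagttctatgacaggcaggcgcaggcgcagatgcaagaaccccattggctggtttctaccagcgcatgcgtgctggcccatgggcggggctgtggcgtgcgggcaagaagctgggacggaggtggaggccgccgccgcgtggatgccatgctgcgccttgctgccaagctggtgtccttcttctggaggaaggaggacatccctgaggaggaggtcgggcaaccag
Mael: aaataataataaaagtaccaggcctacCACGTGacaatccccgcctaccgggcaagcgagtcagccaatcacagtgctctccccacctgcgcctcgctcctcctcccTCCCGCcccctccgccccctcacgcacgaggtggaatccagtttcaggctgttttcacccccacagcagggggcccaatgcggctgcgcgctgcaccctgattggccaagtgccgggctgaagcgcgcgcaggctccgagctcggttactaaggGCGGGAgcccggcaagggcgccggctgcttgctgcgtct
Tdrd1: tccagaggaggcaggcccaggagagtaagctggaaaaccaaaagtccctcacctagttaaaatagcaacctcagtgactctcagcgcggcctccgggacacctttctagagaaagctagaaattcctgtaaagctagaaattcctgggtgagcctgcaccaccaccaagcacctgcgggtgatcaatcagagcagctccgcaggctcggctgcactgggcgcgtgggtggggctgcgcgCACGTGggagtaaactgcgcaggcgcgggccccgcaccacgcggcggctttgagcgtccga
Tdrd5: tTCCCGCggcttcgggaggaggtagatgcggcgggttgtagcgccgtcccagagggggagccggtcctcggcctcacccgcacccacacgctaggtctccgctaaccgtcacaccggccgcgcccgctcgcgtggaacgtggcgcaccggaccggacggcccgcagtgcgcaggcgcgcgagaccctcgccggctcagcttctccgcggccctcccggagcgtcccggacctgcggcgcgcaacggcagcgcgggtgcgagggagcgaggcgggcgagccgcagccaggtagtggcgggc
CACGTG was found in 7.15% of all 32851 promoters of the table and TCCCGC in 19.98%. In the entry nearest the 5′ end of the gene, CACGTG occurred in *Mov10l1*, *Tdrd1* and *Mael*, and in 2 copies in *Tdrd9*. TCCCGC occurred once in *Tdrd5* and in 2 copies each in *Mael* and *Dnmt3a*. *Piwil4*, *Asz1* and *Dnmt3l* had neither in that entry. The CG dinucleotide, the target of DNA methylation, occurred 48 times in the promoter of *Tdrd5*, 24 times in that of *Mael* and 20 times each in those of *Mov10l1* and *Tdrd1*, against a median of 7 over all promoters. These matches are a description of the letters in this window alone.

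Most of these differences were smaller within a cluster. The alternatives by cluster were chosen after the data had been seen. In the meiotic-led cluster, with 39 and 37 cells of dKO testis and 239 and 198 of control ovary, *Mov10l1* had 185 and 252 CPM in dKO testis and 251 and 241 CPM in control ovary (log2 difference -0.13, 95% interval -0.50 to 0.23). *Mael* had 197 and 220 CPM against 191 and 234 CPM, with overlap (0.02, interval -0.35 to 0.39). In neither gene was a difference of the size seen over all germ cells within the interval.

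*Tdrd1* was the gene called in the meiotic-led cluster, at 23.9 and 33.6 CPM in dKO testis and 10.7 and 9.95 CPM in control ovary (log2 difference 1.51, SE 0.27, adjusted p = 0.0032, edgeR). It was the only one of 9 tested, where 14.0% of 11907 genes were called. *Tdrd5* had 18.2 and 27.9 CPM against 15.6 and 15.2 CPM there (0.61, SE 0.27, adjusted p = 0.14, edgeR). *Tdrd9* had 10.0 to 13.6 CPM in dKO testis and 6.22 to 6.81 CPM in control ovary. Its order was thus the opposite of that over all germ cells, without a call. *Piwil4* had 6 and 10 UMIs in dKO testis and 21 and 5 in control ovary, or 3.77 and 7.15 CPM against 2.25 and 0.654 CPM (1.88, SE 0.65, adjusted p = 0.069, edgeR).

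In the pluripotency-led cluster none of 9 genes was called between dKO testis, with 360 and 263 cells, and control ovary, with 27 and 12 cells, where edgeR called 8.89% of 12274 genes. *Mov10l1* had 79.0 and 108 CPM in dKO testis and 150 and 117 CPM in control ovary (log2 difference -0.46, 95% interval -0.94 to 0.03). *Mael* had 86.6 and 78.5 CPM against 90.1 and 158 CPM (-0.37, interval -0.87 to 0.13). *Tdrd5* had 37.8 to 38.9 CPM against 25.2 to 33.1 CPM. For *Mov10l1*, *Mael* and *Tdrd5* the libraries of dKO testis and control ovary did not overlap, and the direction was that over all germ cells. *Tdrd9* did not overlap either, in the opposite direction, at 2.52 to 3.35 against 0 to 1.65 CPM, with control ovary under 3 counts. The share of all genes without overlap was not counted, so these orders are not read as differences. *Tdrd1*, called over all germ cells, had 19.5 and 22.4 CPM against 14.9 and 31.5 CPM there, with overlap (0.22, interval -0.53 to 0.98). *Piwil4* had 2.93 and 2.97 CPM against 7.44 and 6.31 CPM, from 9 and 2 UMIs in control ovary, so its difference had the opposite sign to that over all germ cells (-1.17, interval -2.38 to 0.04). None of the 9 genes had an unadjusted p under 0.05 there.

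Within dKO testis the levels differed between the clusters, given as a description without a test because clusters are drawn from the same transcriptomes. *Mov10l1* had 185 and 252 CPM in the meiotic-led and 79.0 and 108 CPM in the pluripotency-led cluster, and *Mael* 197 and 220 CPM against 86.6 and 78.5 CPM. *Tdrd9* had 10.0 and 13.6 CPM against 2.52 and 3.35 CPM. The order was the opposite for *Tdrd5*, with 18.2 and 27.9 CPM in the meiotic-led and 37.8 and 38.9 CPM in the pluripotency-led cluster, and for *Dnmt3a*, with 16.3 and 25.8 CPM against 33.2 and 46.8 CPM. *Asz1* had 62.2 to 88.5 CPM in the meiotic-led and 54.9 to 61.0 CPM in the pluripotency-led cluster. *Tdrd1* had 23.9 to 33.6 against 19.5 to 22.4 CPM, and *Piwil4* 3.77 to 7.15 against 2.93 to 2.97 CPM. *Piwil2* overlapped, with 35.1 to 65.8 against 37.9 to 46.1 CPM. The share of all genes without overlap was not counted, so these orders are not read as particular to the genes named.

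**Figure D2:**
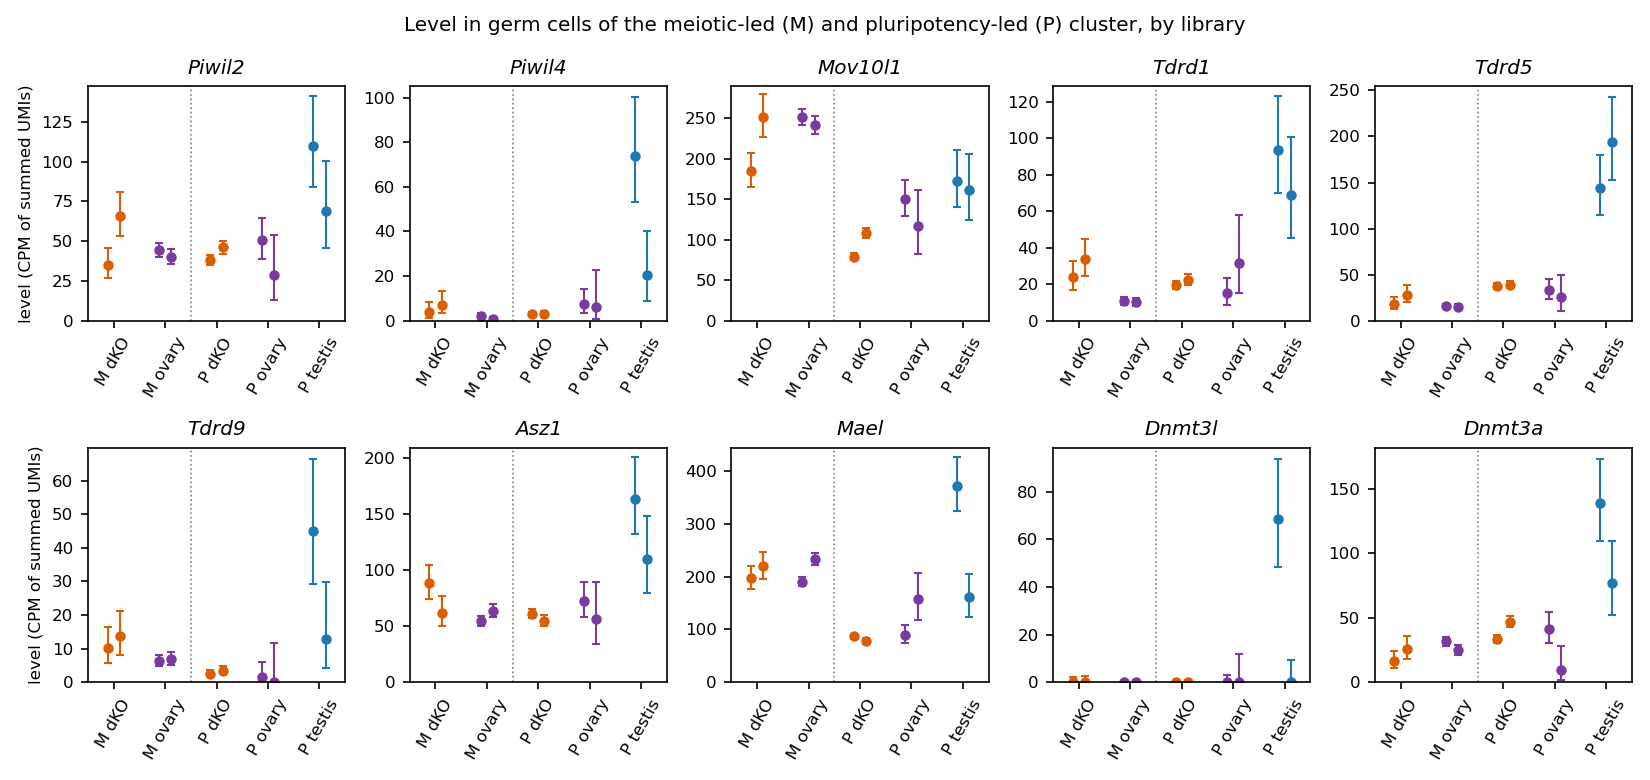
Level of each gene in CPM (vertical axes, linear from 0) in germ cells of the meiotic-led (M) and pluripotency-led (P) cluster, with 1 point per library and bars for the 95% Poisson interval. *Mov10l1* and *Mael* of dKO testis lie beside control ovary in the meiotic-led cluster, at 185 and 252 CPM and at 197 and 220 CPM. In the pluripotency-led cluster *Piwil2*, *Piwil4*, *Mov10l1*, *Tdrd1*, *Tdrd5*, *Tdrd9*, *Asz1* and *Mael* of control testis lie above both other groups.

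Against germ cells of control testis, all 9 genes other than *Dnmt3l* had lower fitted levels in dKO testis. *Dnmt3l* passed the filter on low counts through control testis alone and is given as values without a test. Of the other 9 genes 7 passed the test: *Piwil4*, *Tdrd1*, *Tdrd5*, *Tdrd9*, *Asz1*, *Mael* and *Dnmt3a*. Of 14563 genes 2.85% were called in either direction and 1.59% as lower in dKO testis. The median log2 difference of these 9 genes was -1.38, against 0.08 over all genes. The control testis side rests on 15 and 9 cells. Without replicate 1 of control testis only *Tdrd5* was called among the 9 genes, with 0.431% of 15321 genes called (0.333% lower), although all 9 differences stayed below 0. Control ovary libraries also entered this fit and share its estimate of the spread.

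*Piwil4* had 63.1 and 16.6 CPM in control testis (41 and 9 UMIs) and 2.67 and 2.65 CPM in dKO testis, so both control libraries were above both dKO libraries. The log2 difference was -3.85 (SE 0.55, adjusted p = 0.0008, edgeR), and -2.62 (SE 0.74, adjusted p = 0.16, edgeR) without replicate 1 of control testis. Pooled over libraries, control testis germ cells held 15.8 times the *Piwil4* of dKO testis, with a 95% interval of counting error from 10.95 to 22.5. That interval leaves out the spread between cells, since a single cell held 15 of the 41 UMIs of replicate 1 and another 6 of the 9 of replicate 2. The 2 control libraries differed from each other more than their counting intervals allow.

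*Dnmt3l* had 38 and 1 UMIs in control testis, or 58.4 and 1.85 CPM, against 0 and 2 UMIs in dKO testis. In replicate 1, a single cell held 18 of its 38 UMIs, and 5 of the 15 cells had any. The pooled ratio of control testis to dKO testis, which rests on 39 against 2 UMIs, was 566, with an exact interval of counting error from 147 to 4840, which covers neither this spread between cells nor that between libraries. Nearly all of the *Dnmt3l* UMIs of control testis thus came from replicate 1, and the other libraries had at most 2.

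*Tdrd5* had 125 and 155 CPM in control testis and 33.4 and 32.5 CPM in dKO testis, without overlap. It was 4.08-fold lower in dKO testis (log2 difference -2.03, SE 0.24, adjusted p = 0.00014, edgeR), and the call held without replicate 1 of control testis (-2.22, SE 0.28, adjusted p = 0.0004). *Tdrd1* was at 80.0 and 57.3 CPM in control testis against 18.2 and 19.8 CPM (-1.80, SE 0.27, adjusted p = 0.0012, edgeR; adjusted p = 0.06 without replicate 1). *Tdrd9* was at 38.4 and 9.24 CPM, from 25 and 5 UMIs, against 2.99 and 3.76 CPM (-2.79, SE 0.52, adjusted p = 0.0067, edgeR).

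Smaller differences were seen for *Asz1*, *Mael* and *Dnmt3a*. *Asz1* had 141 and 86.8 CPM in control testis and 57.7 and 44.3 CPM in dKO testis (log2 difference -1.10, SE 0.26, adjusted p = 0.03, edgeR). *Mael* had 318 and 133 CPM against 89.5 and 76.1 CPM (-1.38, SE 0.30, adjusted p = 0.019, edgeR). *Dnmt3a* had 140 and 94.2 CPM against 35.0 and 63.7 CPM (-1.21, SE 0.29, adjusted p = 0.029, edgeR). In each the control testis libraries lay above the dKO testis libraries, and none was called without replicate 1 of control testis.

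*Piwil2*, with 93.8 and 51.7 CPM in control testis against 34.9 and 38.6 CPM, missed the threshold (log2 difference -0.94, SE 0.27, adjusted p = 0.065, edgeR). *Mov10l1* had 149 and 122 CPM in control testis against 82.4 and 98.5 CPM (-0.53, SE 0.23, adjusted p = 0.24, edgeR). Without the germ cells that fell into somatic clusters *Piwil2* was called too (-0.97, SE 0.26, adjusted p = 0.028, edgeR), 8 of the 9 genes where 5.33% of 14031 genes were called (2.23% lower). Within the pluripotency-led cluster alone, which held 14 and 7 control testis cells, 8 of 9 genes tested were called lower in dKO testis. *Piwil2* was included, and 3.79% of 8540 genes were called there (2.45% lower). *Piwil4* and *Tdrd9* passed the filter on low counts in that fit through control testis alone, so a call of either is not read.

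**Figure D3:**
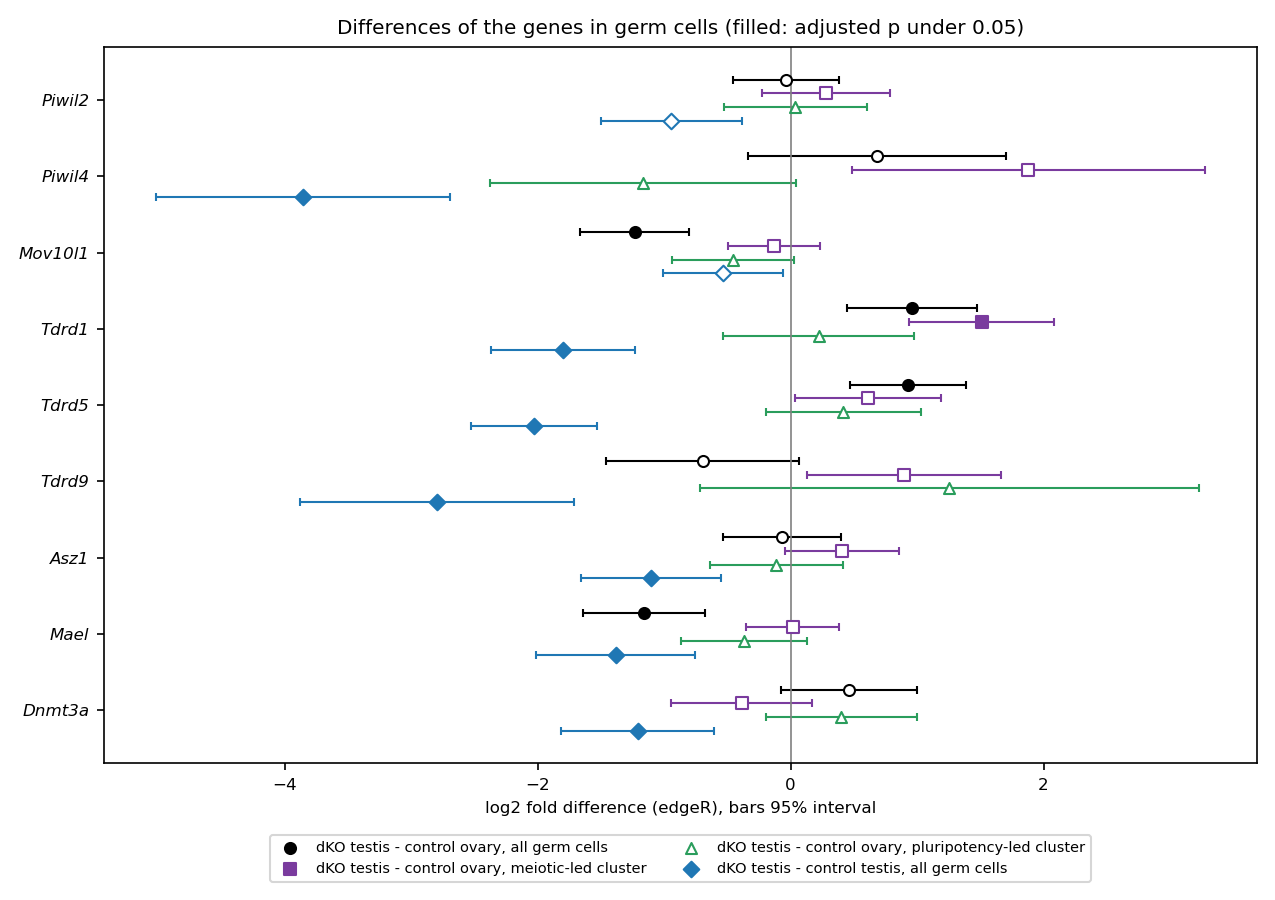
Log2 fold difference of 9 genes in germ cells (horizontal axis, edgeR, with 95% intervals), for dKO testis against control ovary over all germ cells and in each of 2 clusters, and for dKO testis against control testis. Filled symbols passed an adjusted p of 0.05. All differences from control testis lie below 0, from -0.53 for *Mov10l1* to -3.85 for *Piwil4*. *Dnmt3l* is left out because it was at or under 3 UMIs in dKO testis and control ovary.

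Shares of germ cells with at least 1 UMI were counted beside the levels. *Piwil4* was found in 7 of 15 and 4 of 9 cells of control testis, in 9.50% and 9.28% of dKO testis cells and in 8.05% and 3.15% of control ovary cells. Its share in somatic cells was between 0.261% and 1.38%. Median depth was 34182 to 38950 UMIs in the germ cells of 5 libraries, 65223 in those of control testis replicate 2, and 18217 to 24810 in somatic cells. *Tdrd1* was found in 46.4% and 47.7% of dKO testis germ cells and 27.5% and 25.2% of those of control ovary. *Mov10l1* was found in 81.4% and 77.1% against 84.9% and 86.9% of them. After each cell was thinned to 8000 UMIs, *Mov10l1* was found in 44.8% ± 0.0682 (SD, n = 2) of dKO testis and 69.6% ± 6.04 of control ovary germ cells. *Tdrd1* was then found in 15.6% ± 0.205 and 7.18% ± 0.426 of them, and *Piwil4* in 2.57% ± 0.734 and 1.25% ± 1.12.

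Cells also differed in how many of the 10 genes they showed. The median germ cell had UMIs of 5 of the genes in both dKO testis libraries, of 4 in both control ovary libraries, and of 6 and 7 in control testis. At least 8 of the genes were detected in 23 of 442 and 23 of 388 cells of dKO testis, in 5 of 15 and 2 of 9 of control testis, and in 17 of 298 and 2 of 222 of control ovary. *Piwil4* and *Dnmt3l* were found together in 4 cells of control testis replicate 1, in 1 of dKO testis and in none of control ovary.

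A gate on meiotic transcripts changed little. Cells with a UMI of at least 4 of 8 meiotic prophase genes (such as *Sycp1* and *Dmc1*) were 367 of 442 and 299 of 388 in dKO testis and 294 of 298 and 220 of 222 in control ovary. The gate also took 9 of 15 and 8 of 9 control testis cells, so it marks cells with some of these transcripts and does not separate the clusters above. Between these cells of dKO testis and control ovary the same 4 of 9 genes were called, where 40.9% of 14349 genes were called: *Mov10l1* (log2 difference -1.07), *Mael* (-1.01), *Tdrd1* (1.10) and *Tdrd5* (0.99).

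Within dKO testis, cells past this gate were compared with the 7 and 9 cells that had a UMI of at most 1 of the 8 genes. In these few cells *Piwil2* had 2 and 3 UMIs, *Mov10l1* 6 and 8, *Tdrd1* 0 and 2, *Tdrd5* 3 and 4, *Asz1* 3 and 5 and *Mael* 4 and 4. Such genes passed the filter on low counts through the gated side, so their calls are not read here. *Dnmt3a* had 13 and 42 UMIs, or 84.3 and 125 CPM, in them and 31.8 and 56.4 CPM past the gate (log2 difference -1.05, SE 0.31, adjusted p = 0.0069, edgeR), where 16.1% of 12779 genes were called (9.7% higher and 6.44% lower past the gate). Of those 16 cells only 4 lay in a germ-like cluster. With germ-like clusters alone edgeR called none of 9 genes (0 at an unadjusted p under 0.05), *Dnmt3a* included, and 11 genes in all.

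Of 21 other genes of the piRNA pathway, 19 were tested between dKO testis and control ovary germ cells, and 11 were lower and 2 higher in dKO testis. Their median log2 difference was -1.04, against 0.01 over all genes, with 20.4% of all genes called higher and 21.2% lower. The largest falls were those of *Tex15*, a partner of MIWI2 in transposon methylation that also acts in meiotic recombination (log2 difference -2.44, SE 0.23), *Gpat2* (-1.93, SE 0.21), *Gtsf1*, a zinc finger protein of PIWI complexes (-1.58, SE 0.26), and *Btbd18*, a regulator of pachytene piRNA loci (-1.27, SE 0.23). *Tex15* had 167 and 203 CPM in dKO testis and 1010 and 1050 CPM in control ovary. The 2 that were higher were *Wdr77* (1.05, SE 0.22) and *Prmt5* (1.02, SE 0.21), subunits of the methylosome that modifies PIWI proteins. Within the meiotic-led cluster 1 of 18 genes was lower (*Mybl1*) and none higher, where 14% of all genes were called. Within the pluripotency-led cluster 2 of 19 were lower (*Fkbp6* and *Morc1*), near the 8.89% of all genes called.

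Against control testis, where 1.59% of all genes were called lower in dKO testis, 3 of the 19 were lower and none higher: *Morc1*, a factor for transposon methylation in the male germ line (log2 difference -4.34, SE 0.46), *Piwil1* (-3.30, SE 0.70) and *Gtsf1* (-2.60, SE 0.42). *Morc1* had 70.7 and 33.2 CPM in control testis and 3.21 and 1.66 CPM in dKO testis, and it was the one still called without replicate 1 of control testis, where 0.333% of all genes were called lower. *Spocd1*, which acts with MIWI2, was not tested, and had 20 UMIs in replicate 1 of control testis and 0 in the germ cells of the other 5 libraries. It is named after its values were seen.

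Of 13 other DNA methylation genes, 12 were tested between dKO testis and control ovary, with 3 higher and 2 lower in dKO testis, close to the 41.6% of all genes called there. *Tet1*, an enzyme that oxidizes methylated cytosine, had 84.4 and 117 CPM in dKO testis and 21.6 and 9.41 CPM in control ovary (log2 difference 2.73, SE 0.29). *Trim28* (1.11, SE 0.21) and *Zfp57* (0.77, SE 0.29), which protect methylation at imprinted loci, were also higher. *Hells* (-0.71, SE 0.23) and *Nsd1* (-0.55, SE 0.21) were lower. *Tet1* and *Trim28* were called higher in the pluripotency-led cluster too, where 8.89% of all genes were called. In the meiotic-led cluster, with 14% of all genes called, *Trim28* and *Dnmt1* were higher and *Tet2* lower. Between dKO testis and control testis none of the 12 passed the edgeR test, where 2.85% of all genes did. Of the 12, 3 had an unadjusted p under 0.05, and DESeq2 called 1.

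Compared with somatic cells, germ cells of dKO testis and control ovary held more of 8 of the 9 genes tested, and less of *Dnmt3a*. Of 16685 genes 53.7% were called, 24.3% higher and 29.4% lower in germ cells. The median log2 difference of the 9 genes was 5.05. *Mov10l1* was 168-fold higher in germ cells, *Mael* 149-fold, *Asz1* 137-fold, *Piwil2* 49.9-fold, *Tdrd9* 33.0-fold, *Tdrd1* 19.9-fold and *Piwil4* 7.45-fold. *Tdrd9* and *Piwil4* were sparse in somatic cells, found in 9 and 10 of the 3827 of control ovary replicate 1. They passed the filter on low counts through germ cells, so their calls are not read. *Tdrd5* was 3.24-fold higher (log2 difference 1.70, SE 0.47, adjusted p = 0.022, edgeR). *Dnmt3a* was 2.55-fold lower in germ cells (log2 difference -1.35, SE 0.19, adjusted p = 0.0019, edgeR), with 89.7 to 125 CPM in somatic cells of these 4 libraries against 29.0 to 63.7 CPM. In control testis, which did not enter this test, *Dnmt3a* had 140 and 94.2 CPM in germ cells and 113 and 126 CPM in somatic cells. Of the other piRNA pathway genes 18 of 19 were higher in germ cells and none lower, and of the DNA methylation genes 2 of 12 were higher (*Hells* and *Dnmt1*) and 5 lower.

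Across somatic cell types *Dnmt3a* was broad, and *Tdrd5* was higher in granulosa-like cells than in the other types named here. *Dnmt3a* ranged from 43.8 ± 8.90 CPM (SD, n = 2) in endothelial-like cells of dKO testis to 135 ± 11.6 CPM in interstitial-like cells of control testis. *Tdrd5* had 29.9 ± 3.25 CPM in granulosa-like cells of control ovary and 21.4 ± 6.48 CPM in those of dKO testis. The libraries of control ovary and dKO testis did not overlap. The 37 granulosa-like cells of control testis had 21.6 ± 10.2 CPM, so their place in this order is within the spread. An unnamed cluster of control ovary had 19.9 ± 1.36 CPM. Sertoli-like cells had 9.97 ± 0.781 CPM in dKO testis and 4.17 ± 0.806 CPM in control testis, which did not overlap. The same order, without overlap, was seen in Leydig-like cells (5.30 ± 0.634 against 2.05 ± 0.684 CPM) and interstitial-like cells (3.19 ± 0.126 against 0.808 ± 0.0276 CPM). It was also seen in pericyte-like cells (2.71 ± 0.324 against 0.796 ± 0.807 CPM), so it was not particular to Sertoli-like cells. Endothelial-like cells had 1.42 ± 1.11 against 0.0757 ± 0.107 CPM, but their control testis level was under the limit of 3 counts and their order is not read. Granulosa-like cells of dKO testis and control testis overlapped.

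The other 8 genes were at most 4.64 ± 0.838 CPM in any somatic type with 2 libraries, the highest being *Piwil2* in Sertoli-like cells of dKO testis. Free RNA from broken germ cells is counted in somatic cells too, and 1 source keeps its transcripts in the same ratio. Levels were therefore set beside the germ cell level of the same library, over all passing cells of a class outside the germ cell gate. In interstitial-like cells of dKO testis, 6 germ line genes set beside the members differed widely. *Dppa5a*, *Dppa3*, *Sycp3* and *Taf7l* stood at 0.606% to 1.54% of their germ cell level, *Dnd1* at 3.72% and 5.22%, and *Rbm46* at 25.9% and 24.0%. *Asz1*, *Mael*, *Mov10l1* and *Piwil2* stood at 0.768% to 2.66% of theirs, *Tdrd1* at 2.77% and 5.49% and *Tdrd9* at 4.52% and 4.99%. *Tdrd5* stood at 9.93% and 10.0% and *Piwil4* at 23.9% and 30.2%. *Dnmt3a* stood at 295% and 206%, above its germ cell level. The part of free RNA in the lower of these levels was not tested. *Dnmt3l* had 34 and 32 UMIs in interstitial-like cells of control testis, 11 and 9 in those of dKO testis and 0 and 3 in those of control ovary, each under 0.3 CPM.

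**Figure D4:**
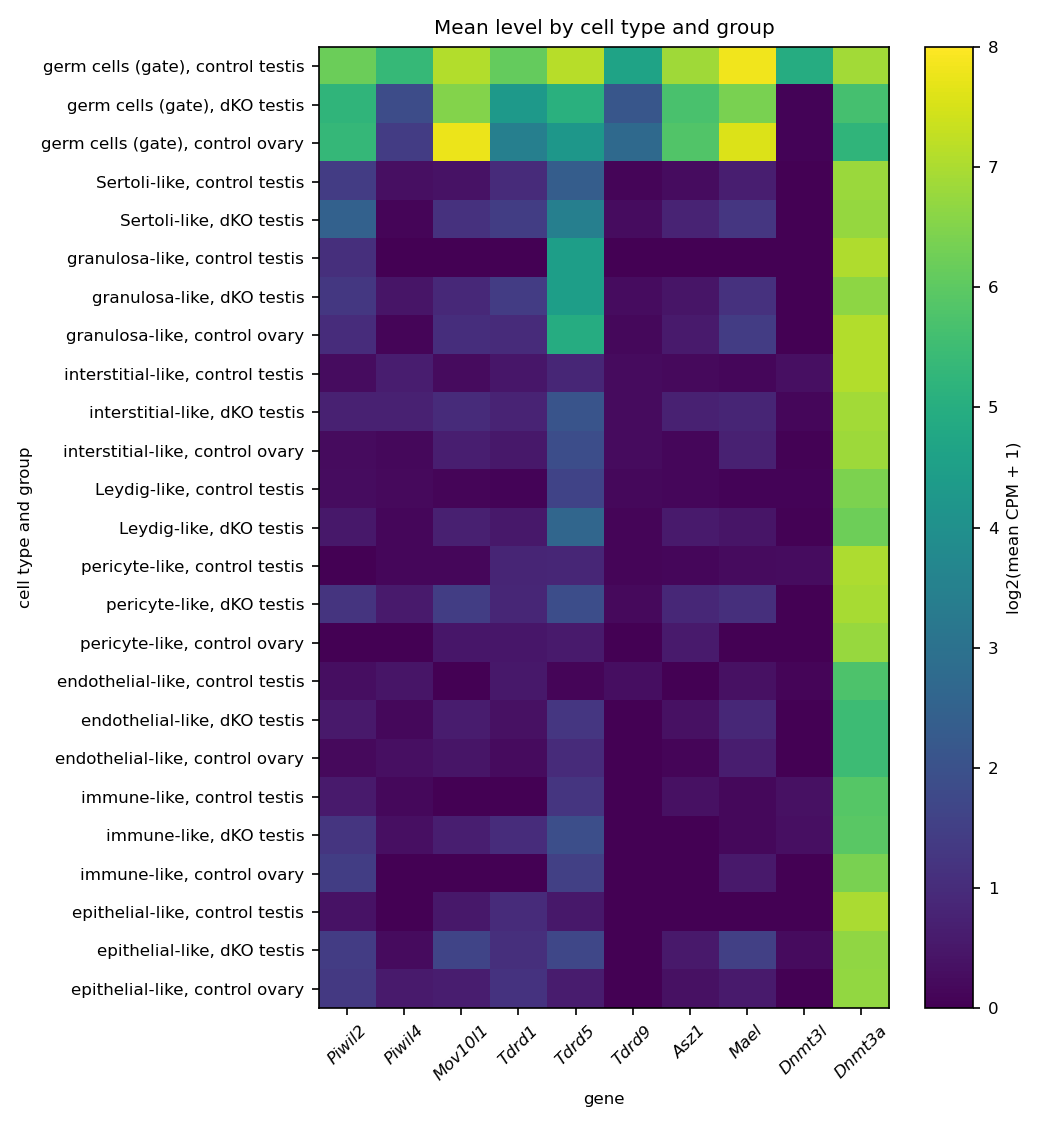
Mean level of each gene (columns) by cell type and group (rows), as log2 of the mean CPM of 2 libraries plus 1. Germ cells of control testis are the only row above 1 CPM of *Dnmt3l* (30.1 CPM on average), *Dnmt3a* is present in all rows, and *Tdrd5* is also seen in granulosa-like and Sertoli-like cells.

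In supporting-like cells 6 of the genes were tested between dKO testis and control ovary and 2 were called, with 37.5% of 14528 genes called. *Tdrd5* had 17.5 and 14.5 CPM in dKO testis and 27.6 and 32.2 CPM in control ovary, and was lower in dKO testis (log2 difference -0.80, SE 0.16, adjusted p = 0.002, edgeR). In control testis it had 5.41 and 5.17 CPM. *Piwil2* was higher in dKO testis, at 2.74 and 2.84 CPM against 1.16 and 0.843 CPM (1.49, SE 0.33, adjusted p = 0.0045, edgeR). Over all passing supporting-like cells outside the germ cell gate, it had 112 and 124 of 36548813 and 32907857 UMIs in dKO testis. It had 23 and 28 of 7866217 and 15751089 in control testis and 103 and 20 of 79754643 and 24954400 in control ovary. *Piwil2* stood at 8.77% and 9.76% of its germ cell level in dKO testis and at 3.12% and 3.44% in control testis. In dKO testis the 6 germ line genes set beside it ranged from 2.04% (*Dppa5a*) to 10.9% (*Dnd1*) in replicate 1. In replicate 2 they ranged from 3.19% (*Sycp3*) to 16.0% (*Dnd1*). *Piwil2* lay within both ranges. Their upper end, *Dnd1*, stood at 46.0% and 97.2% of its germ cell level in supporting-like cells of control ovary. Lying below *Dnd1* thus says nothing of free RNA. The part of free RNA in the difference of *Piwil2* was not tested. Supporting-like cells of control ovary were granulosa-like, those of control testis mostly Sertoli-like, and those of dKO testis 561 Sertoli-like and 663 granulosa-like.

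In interstitial-like cells *Asz1* and *Piwil4* were called higher in dKO testis, 2 of 10 where 26.2% of 16340 genes were called (14% higher), both at levels under 1 CPM. *Asz1* had 0.532 and 0.816 CPM against 0.102 and 0.0838 CPM (log2 difference 2.77, SE 0.45). Over all passing interstitial-like cells outside the germ cell gate it had 64 and 58 UMIs in dKO testis and 7 and 11 in control ovary. The control ovary side was near the floor, so this call is not read. *Asz1* stood at 1.07% and 1.64% of its germ cell level in dKO testis and at 0.406% and 0.283% in control ovary. In dKO testis *Asz1* lay within the range of the 6 germ line genes above, from 0.606% to 25.9% in replicate 1. In replicate 2 the range was from 1.13% to 24.0%. Its upper end was *Rbm46*, which stood at 52.8% and 86.6% in interstitial-like cells of control testis. Lying below *Rbm46* thus says nothing of free RNA. Barcodes over the mitochondrial limit, a sign of damaged cells, were 24.4% and 28.3% of all barcodes in dKO testis, 4.5% and 7.65% in control testis and 9.35% and 2.22% in control ovary. The part of free RNA and of cell quality in this difference was not tested. *Piwil4* had 0.617 and 0.714 CPM in dKO testis and 0.0341 and 0.235 CPM in control ovary (log2 difference 1.94, SE 0.52). Replicate 1 of control ovary lay under 3 counts, so this call is not read either. Over all passing interstitial-like cells outside the germ cell gate, *Piwil4* had 66 and 64 UMIs in dKO testis and 3 and 17 in control ovary. It was not called without dKO testis replicate 1 (2.03), without dKO testis replicate 2 (1.86) or at a clustering resolution of 1 (1.76, adjusted p = 0.054, edgeR). In control testis it had 0.594 and 0.536 CPM.

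The difference between dKO testis and control ovary was itself compared between germ and somatic cells by an interaction term. Against supporting-like cells 30.2% of 15728 genes were called, *Piwil2*, *Tdrd5* and *Dnmt3a* among the 9 tested. Against interstitial-like cells 34.4% of 16327 genes were called, *Piwil2*, *Mov10l1*, *Tdrd5*, *Asz1* and *Mael* among 9. The calls of *Piwil2* and *Asz1* against interstitial-like cells are not read, since few UMIs lay on the control ovary side. *Tdrd5* was thus higher in dKO testis in germ cells and lower in supporting-like cells, and its interaction had the smallest adjusted p of these 18 tests (3.0e-05, edgeR).

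The genes with the most similar pattern were named by the Pearson correlation of log2(CPM + 1) over 54 sums of a cell type in a library. These sums share libraries, and germ cells stand apart from all other types in each, so the correlations are a description. *Mov10l1* was followed by *Slc25a31* (r = 0.98) and *Tuba3a*, and *Mael* by *Rhox1* (0.98) and *Trap1a*, with the same gene, known only by a clone name, next in both. *Piwil2* was followed by *Rhox1* (0.94), *Mael* and *Trap1a*, so that *Piwil2* and *Mael* had *Rhox1* and *Trap1a* in common. *Tdrd9* was followed by *Glipr1l2* (0.98), *Usp44* and RP23-354C15.2, and *Asz1* by RP23-161F5.2 (0.97), RP23-383I4.2 and *Rpl10l*. *Tdrd1* was followed by *Usp26* (0.93), RP23-383I4.2 and *Mbl2*. *Tdrd5* and *Dnmt3a*, which are not restricted to germ cells, had lower values, with *Rmnd1* (0.83), *Pkp2* and *Ccdc170* beside the first and *Myof* (0.83), *Akr1b10* and *Nab2* beside the second. *Piwil4* was followed by RP24-325H17.1 (0.94), RP23-265N8.2 and *Zfp600*, and *Dnmt3l* by RP23-138K22.5 (0.98), *Crtam* and *Adam7*. A sum needed at least 10 cells, so the 9 germ cells of control testis replicate 2 gave none. For *Dnmt3l* the value rests on the germ cells of 1 control testis library. *Piwil4* had 63.1 CPM in that library, against at most 2.67 CPM in germ cells of dKO testis and 2.5 CPM in those of control ovary.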

How the data were processed

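Fetal mouse gonads were studied by 10x Genomics single cell mRNA sequencing, with 2 libraries for each of 3 groups. The deposited values are raw UMI counts for each gene in each barcode, which were not normalized. The authors aligned and counted reads with Cell Ranger and corrected for swapped barcodes. The submitters' notes name mm10, the same assembly as GRCm38, and Seurat 4.0. Cells had more than 2500 and fewer than 9000 genes, under 25% mitochondrial and under 20% *Hbb* UMIs. No doublet caller was run. Clusters came from scanpy 1.11.5 (3000 variable genes without the genes of interest, 20 components, 20 neighbours, Leiden resolution 0.5), and were named from marker lists where at least 3 markers were found in at least 10% of cells at 1.5 times the level of other cells. Somatic cells had no UMI of *Dazl* and *Ddx4*; supporting-like and interstitial-like cells are parts of them.

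UMIs were summed per cell class and library, with libraries as replicates, and tested with edgeR 4.0.16 (filterByExpr, TMM, glmQLFit and glmQLFTest), with Benjamini-Hochberg adjustment over all genes and a threshold of 0.05. The library was a block where cells of the same libraries were compared. DESeq2 1.42.0, other gates, clusters, scalings and filters, a replicate block and leaving out each library were alternatives. Each standard error was derived from the log2 difference and its F statistic. Intervals of counts, at 95%, cover counting error only, and the limit for a count of 0 is 3 counts. Other piRNA and DNA methylation genes are named where called, up to 4 per list and direction by size. The tests were checked on simulated data. The members and lists were chosen with earlier results of these data known. P-values rest on the spread between 2 libraries per group, which edgeR draws for each gene toward a trend over all genes. Between gated and other dKO testis germ cells they rest almost wholly on that trend.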

Additional observations from a re-analysis of the deposited data

Results flagged for a closer look

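The difference between dKO testis and control ovary was called as unlike in germ and somatic cells for 6 of the genes. An interaction term in edgeR's quasi-likelihood fit was used, and *Asz1* is among the 6 only by a call that is not read. It was called for 3 of 9 genes against supporting-like cells, near the 30.2% of all genes, and for 5 of 9 against interstitial-like cells, where 34.4% of all genes were called, so the counts are not read as particular to these genes. Each value is the log2 difference in germ cells minus that in the somatic class. Against supporting-like cells it was 1.77 for *Tdrd5* (SE 0.22, adjusted p = 3.0e-05, edgeR), -1.48 for *Piwil2* (SE 0.30, adjusted p = 0.0017) and 0.80 for *Dnmt3a* (SE 0.22, adjusted p = 0.012). *Tdrd5* was higher in both dKO testis libraries than in both of control ovary in germ cells, and lower in both in supporting-like cells.

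Against interstitial-like cells it was -2.06 for *Mov10l1* (SE 0.35, adjusted p = 0.00062, edgeR) and -1.45 for *Mael* (SE 0.44, adjusted p = 0.02, edgeR). For *Tdrd5* it was 0.76 (SE 0.26, adjusted p = 0.034, edgeR). For *Asz1* it was -2.80 (SE 0.52) and for *Piwil2* -1.44 (SE 0.50), calls that are not read. Over all passing interstitial-like cells of control ovary outside the germ cell gate, *Asz1* had 7 and 11 UMIs and *Piwil2* 4 and 20. *Asz1*, *Mov10l1*, *Mael* and *Piwil2* had at most 1.10 CPM in interstitial-like cells of any library. The part of free germ cell RNA in these somatic levels was not tested. Supporting-like cells were Sertoli-like and granulosa-like in dKO testis and granulosa-like in control ovary.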

How the results depend on the processing

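With 2 libraries per group, and 15 and 9 germ cells in control testis, the calls against control testis are the least certain, and causes of the changes below were not tested. Between dKO testis and control ovary germ cells (4 genes and 6042 of all genes called), 1 gene and 1672 genes were called in the meiotic-led cluster and 0 and 1091 in the pluripotency-led one, both chosen after seeing the data. *Mael* changed sign in the former (log2 difference 0.016). Between dKO testis and control testis 7 of the 9 genes other than *Dnmt3l*, and 415 of all genes, were called. The gate of 2 *Dazl* and 1 *Ddx4* UMIs gave 5 of the 10 genes and 157 in all, and that of 10 and 5 gave 809 in all. Germ-like clusters alone gave 748 and no filter on low counts 1277. Counts against control testis by that looser gate, by leaving out a library or with a block can include *Dnmt3l*, whose call is not read. Between gated and other dKO testis germ cells (6 and 2063), DESeq2 gave 2 and 675, the stricter gate 0 and 34, germ-like clusters alone 0 and 11, and the looser gate 6628 in all. In interstitial-like cells a clustering resolution of 1 left 1 gene (*Asz1*) called, and *Piwil4* was lost.

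Leaving out each library gave 4 to 6 genes (4043 to 5477 in all) for dKO testis against control ovary germ cells, 1 to 9 (66 to 683) against control testis, 3 to 5 (3900 to 5172) past the meiotic gate, 8 to 9 (6637 to 8253) for germ against somatic cells, 2 to 3 (3818 to 5330) in supporting-like and 1 to 3 (2974 to 4045) in interstitial-like cells. It could not be fitted for gated against other dKO testis germ cells, where 1 library would remain. Of single gene results 743 stayed on their side of the threshold, 39 lost and 25 gained a call, and 1 reversed.

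Replicate numbers did not pair the libraries: same-numbered deviations correlated at -0.239 in germ cells, and from -0.192 to 0.0864 in somatic cells. With the replicate number as a block, 4 genes (5170 in all) were called between dKO testis and control ovary germ cells, 8 (281) against control testis, 4 (5228) past the meiotic gate, 2 (4912) in supporting-like and 3 (3402) in interstitial-like cells. Pairing the numbers crosswise, chosen after seeing the data, gave 5 (7669) for the first.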
